A study of Mus musculus with 16 samples.

Results

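Carbonic anhydrases convert carbon dioxide and water to bicarbonate and a proton. In the kidney, membrane-bound and cytosolic forms serve the recovery of filtered bicarbonate and the secretion of acid along the tubule. In the liver, a mitochondrial form supplies bicarbonate to the first steps of urea synthesis and gluconeogenesis. The levels of 9 genes of this family, Car2, Car3, Car4, Car5a, Car8, Car12, Car13, Car14 and Car15, were followed across mouse kidney, liver, the tumors that arose in both organs and ES cells. They were 9 of the 19938 genes measured, and each of the 9 had 1 probe set. The family was chosen by the measured level of Car4, which stood higher in liver tumors than in normal liver while remaining high in kidney and kidney tumors. Levels of Car4, and those of every member in liver tumors against normal liver, are therefore given as a description with no test. The other 8 genes came in by name and were tested in the remaining comparisons, although their values were known when the list was drawn up.

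The 16 arrays comprised 1 of ES cells (129xC57BL6) and 3 for every other group, namely liver tumors, normal liver, normal kidney, kidney tumors and secondary tumors of the kidney. The mice were reprogrammable, that is, reprogramming factors could be switched on with Dox (doxycycline), and were generated from the ES cell line. Mice 4 weeks old received Dox over 7 days, and their kidney tumors were collected 7 days after it was withdrawn. Normal kidney was of the same age. The secondary kidney tumors were transplants grown under the skin of immunodeficient mice, whose own cells they may contain. The background of the tissues was 129xC57BL6 F1 or mixed, and tumors came from chimeric mice, so ICR host cells may be present. The sources used here give neither the promoter that drives the factors nor the age and treatment of the mice behind the liver arrays. They also do not say whether the 3 arrays of a group stand for 3 animals, so the p-values rest on a spread between samples that may be only technical.

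Values are log2 intensities, written as "level" below, and differ between groups by log2 units, where 1 unit is a doubling. A gene was called at an adjusted p under 0.05 in limma, a linear model with a spread shared across genes, after Benjamini-Hochberg adjustment over all 19938 genes. Much of the transcriptome moved in these comparisons, so each count of called members is set beside the percentage of all genes called. Array medians ran from 191 to 226 intensity units, and centring the arrays on their medians changed some calls, as given below. Of 7 adipocyte marker genes with a probe set (8 were listed), the median level was 9.98 in normal kidney 2, 10.45 in normal liver 1 and 9.87 in secondary kidney tumor 1, and 6.71 to 7.48 on the other 13 arrays. Secondary kidney tumor 1 also stood apart in 8 skeletal muscle markers (median 10.77, against 6.72 and 6.89 in the other 2 secondary tumors). Kidney tumors 2 and 3 and liver tumors 2 and 3 had a female transcript, Xist, at 10.19 to 11.35, against 5.60 and 5.88 in kidney tumor 1 and liver tumor 1.

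Promoter sequence was at hand for 5 of the 9 genes in RefSeq (GRCm38.p6). The pair shown here are those of Car4 and Car5a, which stood on opposite sides of normal liver in the liver tumors and differ most in CpG content. The series was paired with DNA methylation data that were not analysed here. Each run gives the 250 bases before the start of the gene, 5′ to 3′ on the gene's strand, with every CpG dinucleotide in capitals. The Car4 window (chr11:84957504-84957753, plus strand) and the Car5a window (chr8:121944913-121945162, minus strand) read as follows.
Car4: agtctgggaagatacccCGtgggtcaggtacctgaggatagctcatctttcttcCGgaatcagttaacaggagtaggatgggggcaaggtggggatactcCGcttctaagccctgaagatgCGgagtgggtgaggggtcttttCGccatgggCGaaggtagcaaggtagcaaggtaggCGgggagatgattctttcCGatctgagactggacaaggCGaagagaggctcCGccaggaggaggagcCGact
Car5a: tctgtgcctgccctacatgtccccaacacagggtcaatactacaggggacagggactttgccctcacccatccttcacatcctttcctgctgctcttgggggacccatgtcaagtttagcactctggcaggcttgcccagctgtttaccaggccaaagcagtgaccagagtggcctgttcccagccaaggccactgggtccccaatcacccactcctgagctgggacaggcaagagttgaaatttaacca
The Car4 window held 11 CpGs. Of 32851 promoter windows of the same length, 35.6% held as many or more, and the median was 6. The Car5a window held 0, at a similar GC content (56.4% for Car4 and 56.0% for Car5a). Car14 had 10, Car12 had 6 and Car15 had 4. The sequence was read from the reference, and nothing about its methylation in these samples follows from it.

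**Figure D1:**
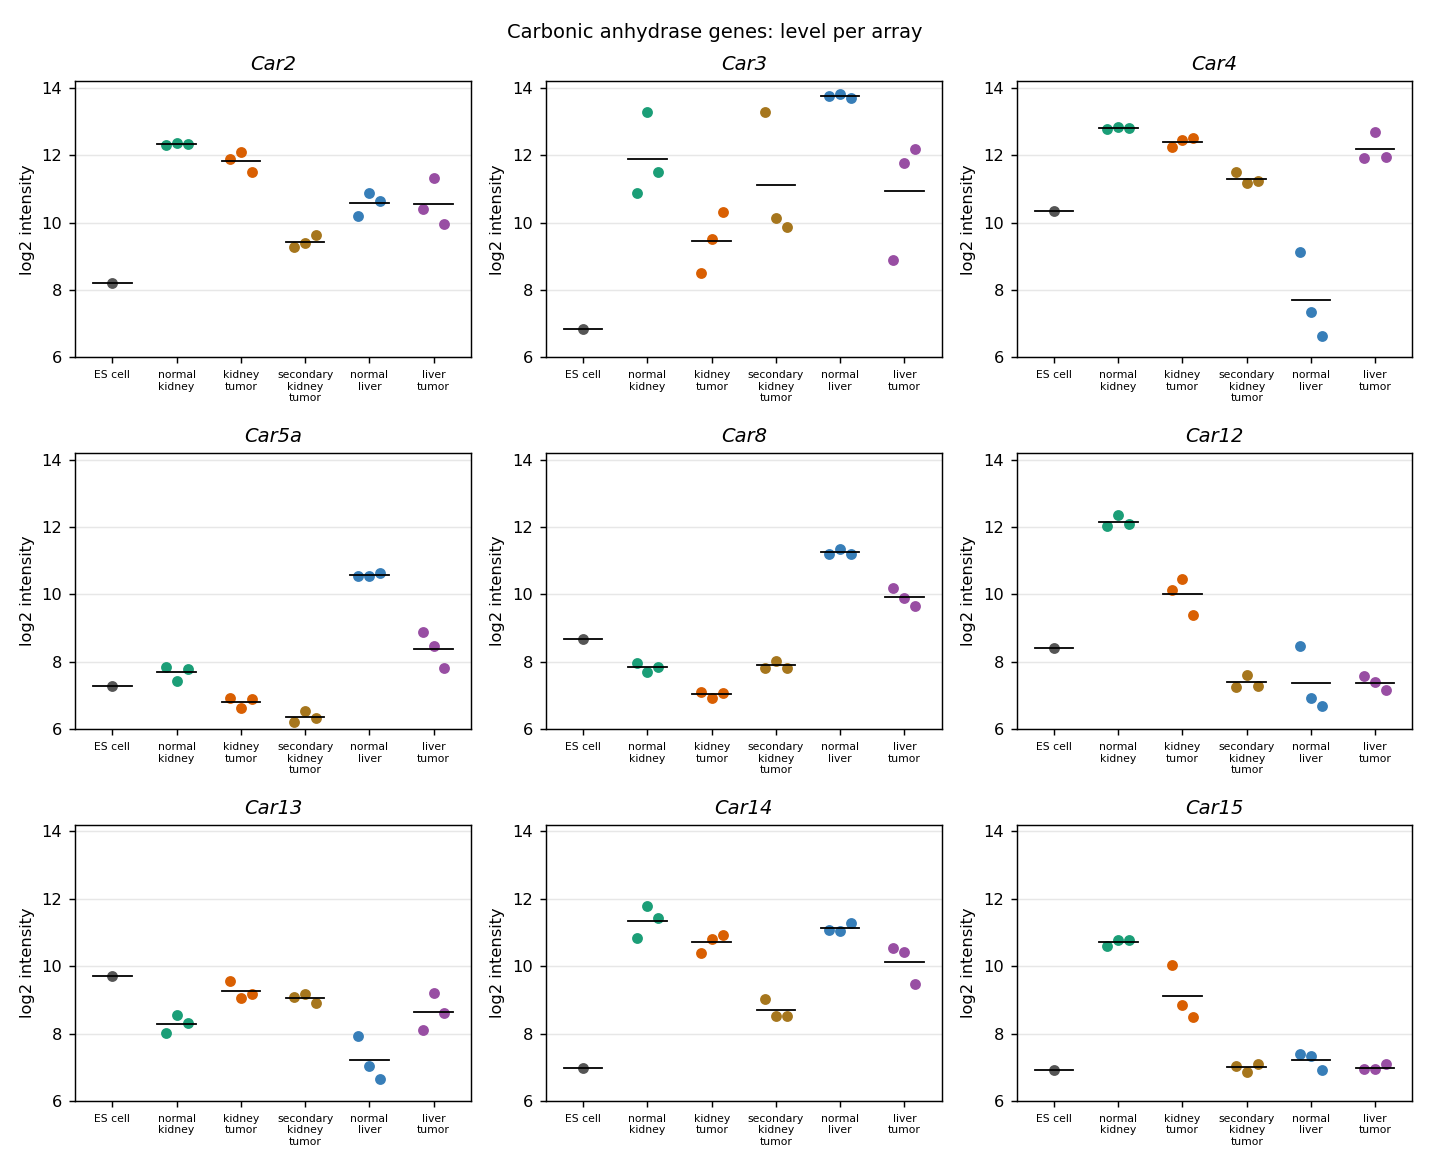
Log2 intensity of the 9 carbonic anhydrase genes (y axis) in each group (x axis); each point is 1 array and the bar is the group mean, with 1 array of ES cells and 3 in every other group. Car4 lay between 6.65 and 9.12 in normal liver and between 11.92 and 12.69 in liver tumors, while Car12 and Car15 were highest in normal kidney and lower in the tumors of the kidney.

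Car4 encodes a carbonic anhydrase anchored to the outer face of the plasma membrane, abundant on the brush border of the proximal tubule. Its level was 12.79, 12.82 and 12.81 in normal kidney 1, 2 and 3 and 12.24, 12.44 and 12.52 in kidney tumors 1, 2 and 3. It was 11.49, 11.16 and 11.23 in the secondary kidney tumors. All 3 primary tumors thus lay below all normal kidneys, and all secondary tumors below all primary ones. In normal liver it was 9.12, 7.35 and 6.65, and in liver tumors 11.92, 12.69 and 11.94. The ES cell array stood at 10.35. In order of group means, normal kidney (12.81 ± 0.02, SD, n = 3) was followed by kidney tumor (12.40 ± 0.15), liver tumor (12.18 ± 0.44), secondary kidney tumor (11.29 ± 0.17), ES cells and normal liver (7.70 ± 1.27). Of the neighbours in that order, kidney tumors and liver tumors overlapped and the others did not.

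Between liver tumor and normal liver, Car4 differed by 4.48 ± 0.78 (SE from these 2 groups alone), a 22.3-fold ratio of geometric means. No detection p accompanies the levels of 7.35 and 6.65 in normal liver 2 and 3, which limits this ratio. The 3 normal liver arrays spread over more than 2 units, and their order was that of proximal tubule markers. Slc34a1, the renal phosphate transporter gene, stood at 11.29, 9.54 and 7.75 in normal liver 1, 2 and 3, and the tubular lactate transporter gene Slc5a12 at 9.37, 7.28 and 6.17. The median of all 8 listed proximal tubule genes was 9.12, 7.85 and 7.20 on those arrays. The part of this signal in the Car4 level of normal liver was not tested, but without normal liver 1 the difference was 5.18. In the liver tumors, where Car4 was high, the summed intensity of the 8 proximal tubule genes was 5999 to 7370. It was 9583 to 14489 in normal liver and 69724 to 74001 in normal kidney. On every liver array most of this sum was the intensity of Slc27a2, so the sum says little about the other listed genes there. The median levels of all 8 genes overlapped, at 7.37 to 7.77 in liver tumors and 7.20 to 9.12 in normal liver. Single genes did not move alike. Slc5a12 was at 5.98 to 6.26 in liver tumors, and Slc5a2 and Slc22a6 lay wholly below normal liver. Lrp2 was at 10.37, 9.39 and 9.61 in liver tumors, against 9.72, 8.11 and 6.96 in normal liver. Cubn was at 7.49, 9.70 and 9.29, against 8.61, 7.16 and 6.42. The part of such cells in the Car4 level of liver tumors was not tested. Markers of 2 further tissues in which Car4 is known to occur were examined. The 6 endothelial markers summed to 3686 to 9612 in liver tumors and 3913 to 6252 in normal liver, and 7 intestinal epithelium markers to 1399 to 2663 and 2445 to 2871. The medians of the intestinal list were 6.99 to 7.63 in liver tumors and 6.97 to 7.35 in normal liver. Its gene Cdh17 was at 5.82, 7.63 and 7.27 in liver tumors, against 5.71 to 5.93 in normal liver. The part of either tissue in the Car4 level was not tested.

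In the kidney, Car4 differed from normal kidney by -0.41 ± 0.09 in primary tumors and by -1.51 ± 0.10 in secondary tumors (SE from the 2 groups alone). The first of these depended on the scaling of the arrays and was -0.01 after quantile normalization and -0.54 with each array centred on its median. The second was -1.13 and -1.74. Both comparisons share the normal kidney arrays. Summed proximal tubule intensity was 21620 to 37914 in primary tumors and 1407 to 1488 in secondary tumors, which is at the level of the ES cell array (1280). In bulk tissue, fewer cells of a type and less RNA per cell cannot be told apart. Across all 16 arrays, the genes whose levels ran most like that of Car4 were Dock1 (Pearson r 0.962), Rragd (0.958), Lrrc1 (0.950), Sfrp1 (0.947) and Pan3 (0.947). These values describe 16 points that share 6 tissues.

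**Figure D2:**
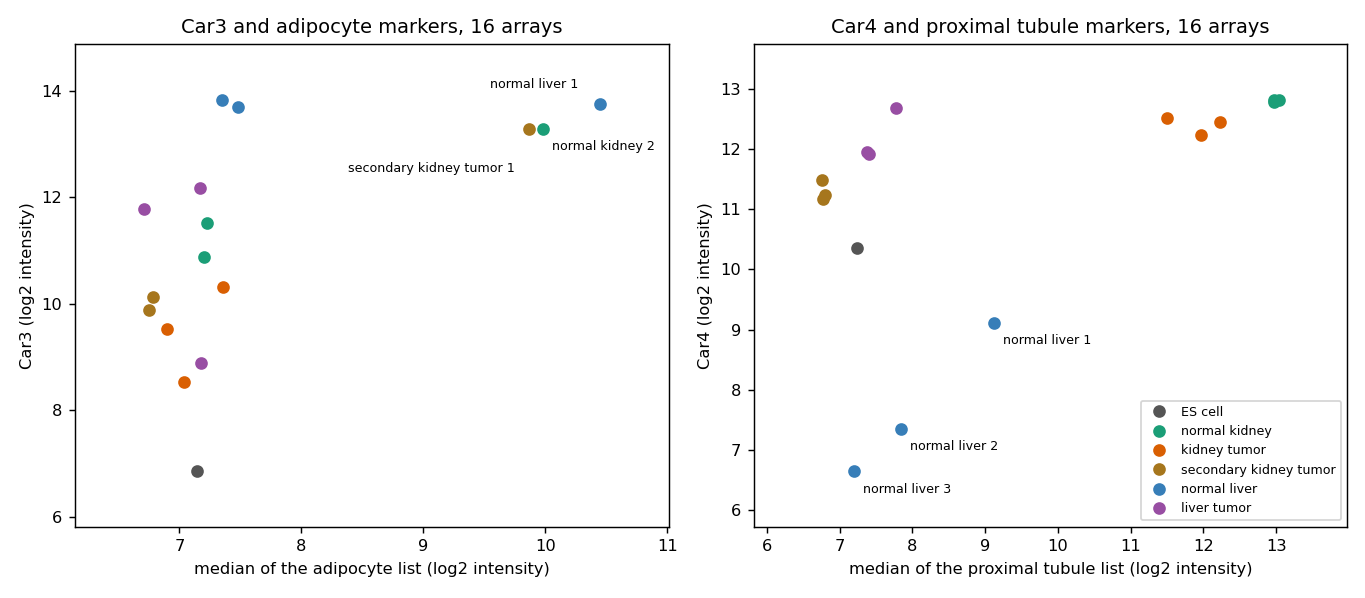
Left, Car3 level (y axis) against the median level of 7 adipocyte markers (x axis) on 16 arrays; right, Car4 level against the median of 8 proximal tubule markers; all values are log2 intensities, each point is 1 array and colours mark groups. The 3 arrays with adipocyte medians of 9.87 to 10.45 all had Car3 above 13, as had the other 2 normal livers, and the 3 normal liver arrays ranked alike in Car4 and in proximal tubule markers.

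The 3 other membrane-bound members fell in secondary kidney tumors, and Car12 and Car15 fell in primary tumors too. Car12 encodes a transmembrane enzyme of the basolateral side of epithelia. Its level was 12.03, 12.36 and 12.09 in normal kidney, 10.14, 10.47 and 9.38 in kidney tumors and 7.27, 7.62 and 7.29 in secondary kidney tumors. The 3 groups did not overlap at any point. Car12 fell by 2.16 ± 0.38 (SE, limma) in primary tumors, a 4.48-fold decrease (adjusted p 0.000413). In secondary tumors it fell by 4.77 ± 0.38 against normal kidney (adjusted p 2.37e-07) and changed by -2.61 ± 0.38 against primary tumors (adjusted p 0.000155). The level it reached there, 7.39 ± 0.20 (SD, n = 3), was close to that of liver tumors (7.38 ± 0.21) and below the ES cell array (8.41). In liver, Car12 was at 8.48, 6.94 and 6.69 in normal tissue and at 7.57, 7.41 and 7.15 in tumors. These overlapped, and the normal livers again ranked as their proximal tubule markers did.

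Car15 encodes a membrane-anchored form found in the rodent kidney. It stood at 10.61, 10.77 and 10.77 in normal kidney, at 10.04, 8.85 and 8.48 in kidney tumors and at 7.05, 6.88 and 7.10 in secondary tumors. Kidney tumor 1 stood higher than kidney tumors 2 and 3, the arrays with Xist. Car15 fell by 1.59 ± 0.29 in primary tumors (adjusted p 0.000456), and by 0.68 when kidney tumors 2 and 3 were left out (adjusted p 0.0120, with a single tumor array assumed to vary like the other groups). The change was -3.71 ± 0.29 in secondary tumors against normal kidney (adjusted p 1.67e-07) and -2.11 ± 0.29 against primary tumors (adjusted p 7.84e-05). In the liver it was low in both states, 7.40, 7.34 and 6.93 in normal liver and 6.94, 6.94 and 7.09 in liver tumors. These levels overlapped each other and those of secondary tumors, and the ES cell array stood just below both liver groups at 6.93. No detection p accompanies the values, so a level near 7 could not be told from background. The gene most like Car15 over the 16 arrays was Slc9a3, the sodium-proton exchanger of the proximal tubule (r 0.996), followed by Wfdc15b and Scnn1g (both 0.993).

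Car14 encodes another transmembrane enzyme, known from kidney and liver plasma membranes. Its level was 10.83, 11.77 and 11.42 in normal kidney and 10.40, 10.82 and 10.92 in kidney tumors, and these groups overlapped. The difference of -0.63 ± 0.29 did not pass (adjusted p 0.0852). In secondary tumors the level was 9.03, 8.53 and 8.51, below every other tissue array. Car14 fell by 2.65 ± 0.29 against normal kidney (adjusted p 3.33e-06) and changed by -2.02 ± 0.29 against primary tumors (adjusted p 0.00011). In liver it stood at 11.07, 11.05 and 11.30 in normal tissue and at 10.54, 10.41 and 9.46 in tumors, without overlap.

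Beside these decreases, the markers of the tubule segments that express membrane-bound carbonic anhydrases moved too. The 7 listed intercalated cell genes, such as Atp6v1b1 and Foxi1, summed to 8428 to 9554 intensity units in normal kidney, 1693 to 3496 in primary tumors and 623 to 671 in secondary tumors. On the ES cell array they summed to 709. Their part, and that of the proximal tubule genes above, in the levels of Car12, Car14 and Car15 was not tested.

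Of the cytosolic members, Car2 encodes the widespread enzyme of high activity, which in the kidney occurs in proximal tubule and intercalated cells. Its level was 12.32, 12.35 and 12.33 in normal kidney and 11.90, 12.09 and 11.50 in kidney tumors. All tumors were below all normal kidneys, but the difference of -0.50 ± 0.28 did not pass (adjusted p 0.153). Fitted on these 2 groups alone the adjusted p was 0.0292. In secondary tumors the level was 9.28, 9.39 and 9.64, and Car2 fell by 2.89 ± 0.28, or 7.44-fold, against normal kidney (adjusted p 1.29e-06). Against the primary tumors it fell by 2.39 ± 0.28 (adjusted p 2.24e-05). The liver arrays did not separate, with 10.21, 10.88 and 10.65 in normal liver and 10.40, 11.33 and 9.97 in liver tumors. The ES cell array was the lowest of all at 8.20.

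Car13, which encodes another cytosolic enzyme, was the single member that stood higher in all 3 kinds of tumor. It was at 8.01, 8.56 and 8.30 in normal kidney, 9.55, 9.04 and 9.18 in kidney tumors and 9.09, 9.18 and 8.90 in secondary tumors. The highest level, 9.71, was on the ES cell array. Car13 rose by 0.97 ± 0.31 in primary tumors (adjusted p 0.0197) and by 0.77 ± 0.31 in secondary tumors (adjusted p 0.0420). The first call was lost without normal kidney 1 (adjusted p 0.0761), without kidney tumor 1 (0.0668) and without kidney tumors 2 and 3 (0.0612). The second was lost under quantile normalization (0.0931), with centred arrays (0.0920), with the replicate number as a block (0.0512) and without normal kidney 1 or 3 or any 1 of the secondary tumors (0.0560 to 0.137). The difference between secondary and primary tumors was -0.20 ± 0.31 (adjusted p 0.637). In liver Car13 was at 7.92, 7.05 and 6.66 in normal tissue and at 8.10, 9.20 and 8.61 in tumors. The groups did not overlap, and the order of the normal livers was that of Car4 and Car12.

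Car3 encodes a cytosolic enzyme of low activity that is abundant in adipose tissue, slow skeletal muscle and the hepatocytes around the central vein. In normal kidney 1, 2 and 3 it stood at 10.88, 13.29 and 11.51, and in kidney tumors at 8.52, 9.52 and 10.31. The secondary tumors were at 13.29, 10.13 and 9.88. The highest array of normal kidney and of secondary tumor were those with the adipocyte signal, normal kidney 2 (Adipoq 9.98, against 5.85 and 5.63 in the others) and secondary kidney tumor 1 (Adipoq 9.87, against 5.51 and 5.54). Secondary kidney tumor 1 also had the muscle creatine kinase gene Ckm at 11.27, against 6.97 and 6.88. The part of fat or muscle in these Car3 levels was not tested. Car3 was lower in primary tumors by 2.44 ± 0.99, which did not pass (adjusted p 0.0555). The difference was -1.75 without normal kidney 2, normal liver 1 and secondary kidney tumor 1 (adjusted p 0.122). It passed in the fit of the 2 groups alone (adjusted p 0.0248), with centred arrays (0.0328), without the dimmest genes (0.0423) and without normal kidney 1 (0.0476). Secondary against primary tumors gave 1.65 ± 0.99 (adjusted p 0.213), and 0.56 without those 3 arrays (adjusted p 0.661).

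In normal liver Car3 was at 13.74, 13.83 and 13.69, so normal liver 1, the array with adipocyte signal, was not set apart there. Liver tumors were at 8.88, 11.77 and 12.18, each below all normal livers. The difference was -2.81 ± 1.04, a 7.01-fold lower geometric mean, and it was -4.87 for liver tumor 1 alone, the array without Xist. Of the perivenous hepatocyte markers, all 7 had a probe set and summed to 33049 to 33385 in normal liver and 15168 to 19837 in liver tumors. Cyp1a2, a cytochrome P450 gene of perivenous hepatocytes, stood at 12.56, 12.72 and 12.53 in normal liver and at 8.58, 9.31 and 9.46 in liver tumors. The part of these cells in the Car3 level was not tested.

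Car5a encodes the mitochondrial form of liver, whose bicarbonate feeds carbamoyl phosphate synthetase and pyruvate carboxylase. It was at 10.55, 10.54 and 10.62 in normal liver and at 8.90, 8.46 and 7.81 in liver tumors, a difference of -2.18 ± 0.32 (4.54-fold lower) with no overlap. The summed intensity of 8 hepatocyte markers was 93052 to 95856 in normal liver and 62584 to 86092 in liver tumors. Alb, the albumin gene, was at 13.54 to 13.75 in the tumors, against 13.76 to 13.89 in normal liver. Cps1, another gene of that list, was at 12.27 ± 1.00 in the tumors and 13.50 ± 0.04 in normal liver (SD, n = 3). The part of hepatocytes in the Car5a level was not tested. In kidney the levels of Car5a were at the low end. They were 7.86, 7.42 and 7.79 in normal kidney, 6.92, 6.62 and 6.91 in kidney tumors and 6.21, 6.55 and 6.35 in secondary tumors, with no overlap between the groups. Car5a fell by 0.87 ± 0.22 in primary tumors (adjusted p 0.00437), a call lost without kidney tumors 2 and 3 (adjusted p 0.1000). It fell by 1.32 ± 0.22 in secondary tumors (adjusted p 0.000136). The step of -0.45 ± 0.22 from primary to secondary tumors did not pass (adjusted p 0.125).

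Car8 encodes a carbonic anhydrase-related protein that lacks enzyme activity and is known as a binding partner of the inositol trisphosphate receptor. Its level was 11.20, 11.34 and 11.20 in normal liver and 10.20, 9.88 and 9.66 in liver tumors, again without overlap, with a difference of -1.34 ± 0.16. In normal kidney it was 7.96, 7.71 and 7.85, in kidney tumors 7.11, 6.93 and 7.09 and in secondary tumors 7.83, 8.04 and 7.81. Car8 fell by 0.80 ± 0.12 in primary tumors (adjusted p 0.000152) and was higher by 0.85 ± 0.12 in secondary than in primary tumors (adjusted p 0.000149). Secondary tumors and normal kidney overlapped, and their difference of 0.05 ± 0.12 did not pass (adjusted p 0.726). Car8 was the single member of the 8 tested that rose from primary to secondary tumors.

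**Figure D3:**
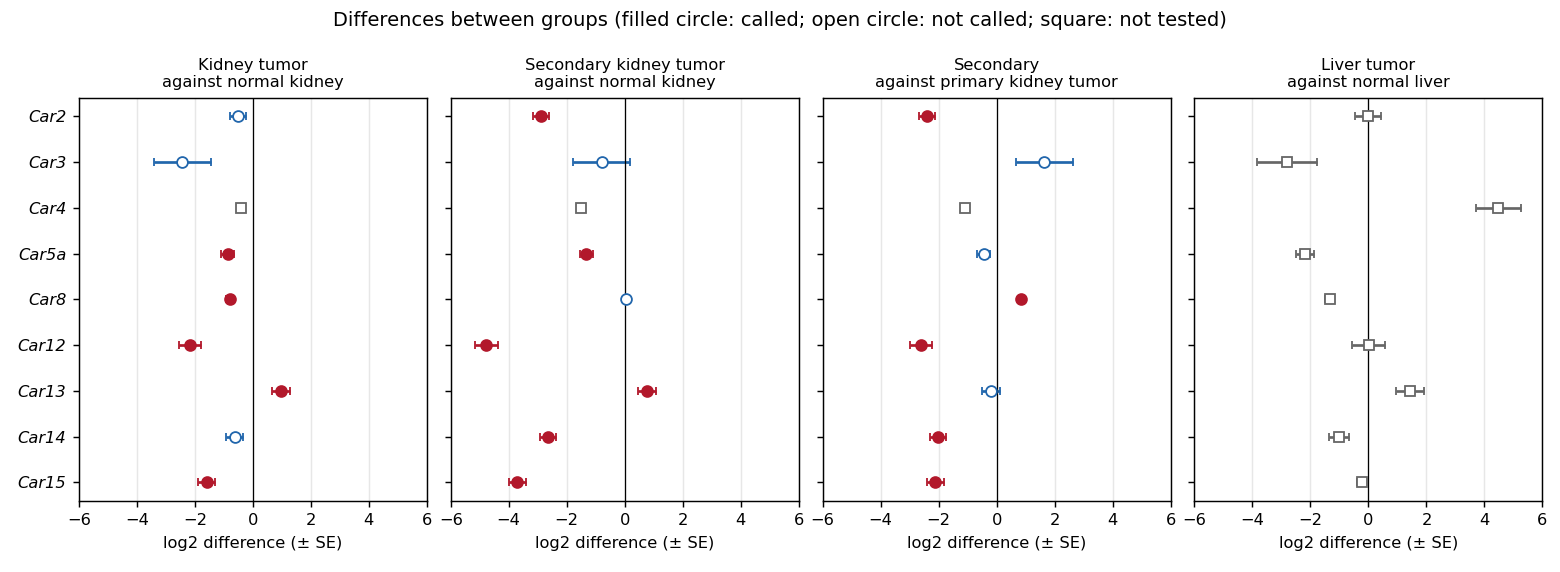
Log2 difference between groups with its standard error (x axis) for each of the 9 genes (y axis) in 4 comparisons; filled circles passed an adjusted p under 0.05 in limma, open circles did not, and grey squares were not tested and carry the standard error of the 2 groups alone. Car2, Car12, Car14 and Car15 lay at or below -2.65 in secondary tumors against normal kidney, and Car4 at 4.48 in liver tumors.

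Counted together, 5 of the 8 tested members were called in kidney tumors against normal kidney (4 fell and 1 rose), where 49.8% of all genes were called, 28.1% lower and 21.7% higher. The median difference of the 8 was -0.84, beside -0.11 over all genes. In secondary tumors against normal kidney 6 were called (5 fell and 1 rose), where 68.6% of all genes were, 38.7% lower and 29.9% higher. The median of the 8 was -1.99, beside -0.12. From primary to secondary tumors 5 were called (4 fell and 1 rose), beside 36.0% of all genes, 17.4% lower and 18.5% higher. In both comparisons with normal kidney the count of called members was close to that of all genes, and it is no result about the family. Leaving out kidney tumors 2 and 3 reduced the first count to 3. Counted by arrays over all 9 genes, Car4 included, 1 gene lay wholly above normal kidney in kidney tumors and 7 wholly below, beside 25.3% and 39.3% of all genes (64.6% in either direction). In secondary tumors 1 lay wholly above and 6 wholly below normal kidney, beside 33.3% and 46.2% (79.6%). Against primary tumors 1 lay wholly above (Car8) and 6 wholly below, beside 23.6% and 32.6% (56.2%). These counts include the pattern of Car4 that chose the family, and nothing is read from them. Of all 9 genes in the liver, 2 lay wholly above (Car4 and Car13) and 4 wholly below normal liver (Car3, Car5a, Car8 and Car14), where 22.0% of all genes lay wholly above and 37.2% wholly below (59.2% in either direction). With arrays centred on their medians 7 of the 9 did not overlap, in place of 6.

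Normal kidney and normal liver differed in 6 of the 8 tested genes, beside 37.8% of all genes. Higher in kidney (21.4% of all genes) were Car12 by 4.79 ± 0.38 (adjusted p 4.63e-07), Car15 by 3.49 ± 0.29 (adjusted p 5.83e-07), Car2 by 1.75 ± 0.28 (adjusted p 0.000239) and Car13 by 1.08 ± 0.31 (adjusted p 0.0139). The Car13 call was lost without normal kidney 2 (adjusted p 0.0608) and without normal liver 2 (0.0504) or 3 (0.0696). Higher in liver (16.4% of all genes) were Car8 by 10.6-fold (log2 difference -3.41 ± 0.12, adjusted p 2.57e-10) and Car5a by 7.37-fold (-2.88 ± 0.22, adjusted p 2.46e-07). Car14 (0.20 ± 0.29, adjusted p 0.618) and Car3 (-1.86 ± 0.99, adjusted p 0.161) did not pass, and Car3 passed in the fit of these 2 groups alone (adjusted p 0.0251).

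Over the 16 arrays some members ran alike. Car12 and Car15 ran together (Pearson r 0.957), as did Car5a and Car8 (0.916) and Car2 and Car14 (0.843). Car4 ran most like Car13 (0.676) and opposite to Car8 (-0.744) and Car5a (-0.722). Beyond the family, Car12 was most like Slc16a4 (0.985), St6galnac2 (0.982) and Atp6v0a4 (0.981), the last a proton pump subunit of intercalated cells. Car5a was most like Ikbkg (0.988), Vmo1 (0.984) and Dpys (0.983), and Car8 most like Fam20a (0.987), Urah (0.982) and Shfl (0.980). For Car2 the closest were Plscr2 (0.938), Kap (0.928) and Myo5b (0.926), for Car14 Aadat (0.945), Enpep (0.938) and Gprc5c (0.938), for Car13 Traf7 (0.958), Agfg1 (0.952) and Coro1c (0.951), and for Car3 Akt2 (0.851), Rap1a (0.850) and Galnt4 (0.849). All of these correlations are over the same 16 arrays, which share 6 tissues, and are descriptions.

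The genes that move bicarbonate and acid across membranes, with which the kidney enzymes work, were taken as a list of 28, of which 26 had a probe set. Slc4a1, Slc26a4, Atp6v1b1 and Atp6v0d2 were also among the intercalated cell markers above. As many of its genes are known from the kidney, its direction between the organs is no result about the list. In kidney tumors 19 of the 26 fell, 1 rose and 6 did not pass (median -1.30), where 28.1% of all genes were called lower and 21.7% higher (median -0.11). The largest decreases were those of Slc9a3, the apical sodium-proton exchanger (-2.36 ± 0.37), and Slc4a1, the anion exchanger of intercalated cells and erythrocytes (-2.23 ± 0.60). Slc26a9, an anion transporter gene, was the 1 that rose (0.36 ± 0.12). In secondary tumors 21 fell, 4 rose and 1 did not pass (median -2.28), beside 38.7% of all genes lower and 29.9% higher (median -0.12). The largest decreases were those of Slc9a3 (-5.80 ± 0.37) and Atp6v0a4 (-4.84 ± 0.29). Slc4a10 and Slc4a3, bicarbonate transporters best known from neurons and excitable tissue, rose by 1.62 ± 0.19 and 1.10 ± 0.14. The 6 neuronal markers summed to 16635 to 22914 in secondary tumors and to 710 to 823 in normal kidney, and their part was not tested. From primary to secondary tumors 15 fell, 4 rose and 7 did not pass, beside 17.4% of all genes lower and 18.5% higher, with Slc9a3 at -3.43 ± 0.37, Atp6v0a4 at -3.36 ± 0.29, Slc4a10 at 1.98 ± 0.19 and Slc4a3 at 1.06 ± 0.14. Between the organs 17 were higher in kidney, 0 higher in liver and 9 did not pass, beside 21.4% of all genes higher in kidney and 16.4% higher in liver, with Slc9a3 at 5.21 ± 0.37 and Atp6v0a4 at 4.61 ± 0.29. In liver tumors 1 of 26 lay wholly above normal liver and 12 wholly below, beside 22.0% and 37.2% of all genes, and these were not tested.

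**Figure D4:**
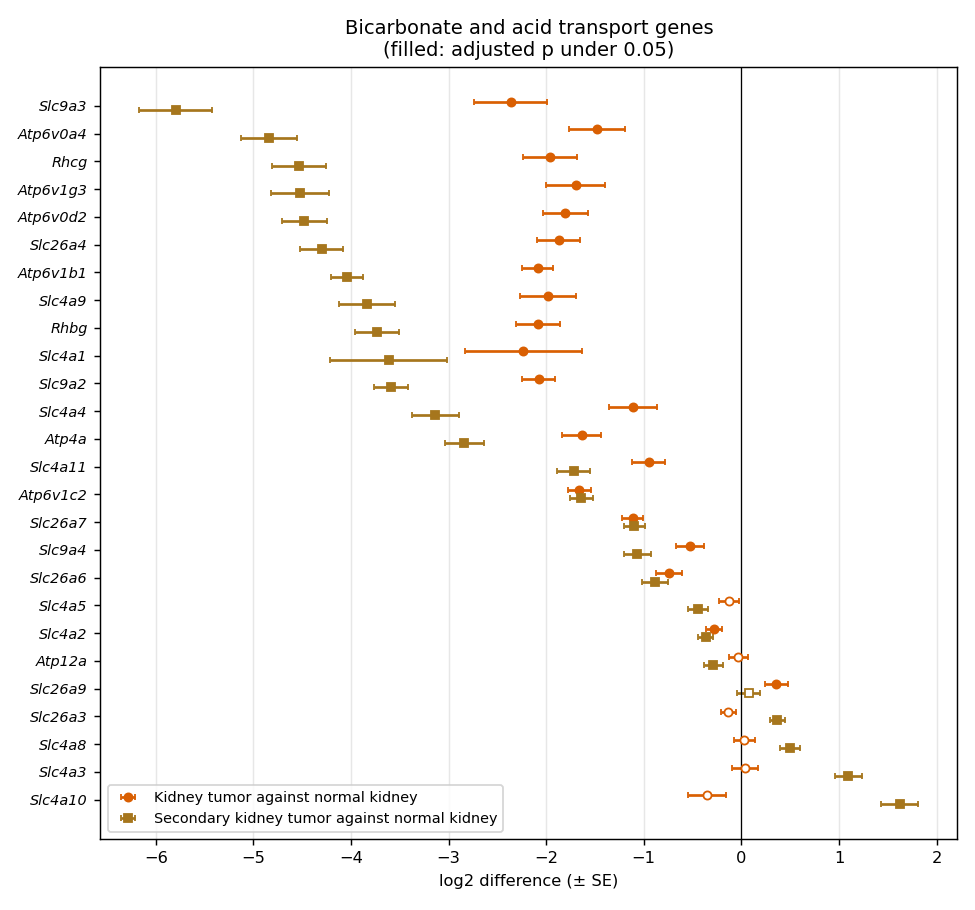
Log2 difference with its standard error (x axis) for 26 genes of bicarbonate and acid transport (y axis) in kidney tumors (circles) and secondary kidney tumors (squares) against the same 3 normal kidney arrays; filled symbols passed an adjusted p under 0.05 in limma. Slc9a3 lay at -2.36 and -5.80, and Slc4a10 was the highest in secondary tumors at 1.62.

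Among the enzymes that use bicarbonate as a substrate, 7 of the 8 listed had a probe set. In kidney tumors 5 fell (28.1% of all genes), none rose (21.7%) and 2 did not pass, led by Mccc1 (-1.77 ± 0.17), a subunit of methylcrotonyl-CoA carboxylase, and Pcca (-1.63 ± 0.18), of propionyl-CoA carboxylase. In secondary tumors 5 fell (38.7% of all genes), 1 rose (29.9%) and 1 did not pass, with Mccc1 at -2.62 ± 0.17, Pcca at -2.45 ± 0.18 and the fatty acid synthesis gene Acaca at 0.67 ± 0.24. From primary to secondary tumors 4 fell (17.4% of all genes), none rose (18.5%) and 3 did not pass, with Pccb at -0.91 ± 0.20 and Mccc1 at -0.85 ± 0.17. Between the organs 2 were higher in kidney (Mccc1 by 1.07 ± 0.17 and Pccb by 0.58 ± 0.20), 3 were higher in liver and 2 did not pass, beside 21.4% of all genes higher in kidney and 16.4% higher in liver. Cps1, the urea cycle enzyme that depends on mitochondrial bicarbonate, differed most (-7.03 ± 0.34), followed by Acaca (-1.70 ± 0.24). In liver tumors all 7 lay wholly below normal liver, beside 37.2% of all genes, with Cps1 at 12.27 ± 1.00 (SD, n = 3) against 13.50 ± 0.04.

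Of the 7 carbonic anhydrase genes outside the list of 9, Car5b, the mitochondrial form of tissues other than liver, fell by 1.34 ± 0.40 in primary kidney tumors (adjusted p 0.0131) and by 2.75 ± 0.40 in secondary tumors (adjusted p 4.87e-05). Car7, a cytosolic form, fell by 0.56 ± 0.19 (adjusted p 0.0246) and 1.36 ± 0.19 (adjusted p 3.05e-05). Car9, a hypoxia-inducible form, lay between 8.80 and 9.45 in normal kidney and between 6.50 and 7.60 in kidney tumors, where it fell by 2.12 ± 0.23 (adjusted p 9.7e-06). Car10 and Car11, which encode related proteins without activity, rose in secondary tumors against normal kidney by 1.88 ± 0.20 (adjusted p 2.58e-06) and 0.47 ± 0.13 (adjusted p 0.00752). Car1, a cytosolic form of erythrocytes, was at 9.91, 10.05 and 9.91 in normal liver and at 7.02, 7.05 and 7.47 in liver tumors. The 6 erythroid markers with a probe set summed to 2052 to 6166 and to 928 to 1944 on those arrays. Their medians overlapped, at 6.60 to 7.33 in normal liver and 6.46 to 6.66 in liver tumors. The part of erythroid cells in the Car1 level was not tested. Car6, the secreted form of saliva, lay between 5.24 and 5.97 on all tissue arrays.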

How the data were processed

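Total RNA of 16 samples was labelled with the Affymetrix WT Terminal Labeling kit and hybridised to 1-colour arrays, per the labels. The authors deposited linear intensities, 1 per probe set and array; the submitters' processing notes name mm9, and how background, summary and scaling were handled is not stated in the sources used here. Intensities ran from 20.7 to 20262. Values were put on the log2 scale as deposited. Of 28856 probe sets, GEO's platform annotation gave 21789 a single symbol, 1621 several and 5446 none. The probe set with the highest mean was kept for each of 19938 genes; no dim gene was removed.

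Groups were compared in limma 3.58.1 (R 4.3.3), by a model with a mean for each of the 6 groups (10 residual and 2.66 prior degrees of freedom), and the step was tested on simulated data. No 2 arrays held identical values. Precision is limited by the 3 arrays in a group. The 9 members, gene lists and alternatives were chosen with earlier results of these data known. Named genes were the members, the other carbonic anhydrases, the 2 called genes of largest change in each direction from 2 lists of bicarbonate transport and use, and the genes of highest Pearson r with a member (5 for Car4, 3 for others spanning at least 2 log2 units over groups). Markers of other cell types came from fixed lists; those of glia, macrophages and the hypoxia response were also computed. Promoter windows came from RefSeq (GRCm38.p6). The alternatives were the compared groups alone, quantile normalization, median centring, leaving out the dimmest 33.3% of genes, averaging or testing every probe set, an intensity trend, a replicate block and leaving out arrays.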

Additional observations from a re-analysis of the deposited data

Results flagged for a closer look

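Car4 stood on opposite sides of normal tissue in the tumors of the 2 organs. All 3 kidney tumor arrays lay below the normal kidney mean, by an average log2 difference of -0.4061, and all 3 secondary kidney tumor arrays by -1.5126. All 3 liver tumor arrays lay above the normal liver mean, by 4.4777. The difference between the organs was not tested, because this pattern is what the family was chosen for, and the difference in primary kidney tumors was -0.01 after quantile normalization. Groups of 3 arrays are too small for a test of single outlying arrays.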

How the results depend on the processing

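For the 8 tested genes in 4 comparisons, 472 of 496 values under an alternative kept their side of the threshold. A call was lost in 15 (14 of them of Car13) and gained in 9, and 0 values with a call in either fit reversed direction. Differences called in neither fit could change sign and are counted among the 472. Car14 between the organs ran from -0.05 to 0.46 under the alternatives. Car8 in secondary tumors against normal kidney ran from -0.19 to 0.11. The count of called members left its range of 1.5 times in 1 case: 3 in place of 5 for kidney tumor against normal kidney without the kidney tumor arrays with Xist signal, where 5715 in place of 9922 of all genes were called with a single tumor array left. Leaving out 1 array at a time gave 4 to 6 called members in that comparison, 5 to 6 in secondary tumors set against normal kidney, 5 between the 2 kinds of kidney tumor, 5 to 6 between the organs, and 6 to 7 of 9 without overlap in the liver. With the replicate number as a block, 5, 5, 5 and 6 members were called, and the single call that changed was that of Car13 in secondary tumors. Whether the numbers pair the samples was not settled: correlations of same-numbered deviations ran from -0.163 to 0.150. In both comparisons with primary kidney tumors, each same-numbered value (0.037 to 0.139) exceeded the highest for other numbers (-0.049 to 0.034). In the other comparisons most did not. Gained calls beyond those in the text were Car5a from primary to secondary tumor in the fit of the compared groups alone (adjusted p 0.0368), and Car14 in kidney tumors with centred arrays (0.0314) and without normal kidney 1 (0.0266). The cause of each change was not tested. Centring moved the median of all genes from -0.11 to -0.24 in kidney tumors, from -0.12 to -0.35 in secondary tumors, from -0.07 to -0.16 between them and from -0.13 to -0.33 in liver tumors. It changed the split of calls from 4322 higher and 5600 lower to 3606 and 8118 in kidney tumors, from 5962 and 7720 to 4578 and 10774 in secondary tumors, and from 3693 and 3475 to 3132 and 4921 between them. Leaving out normal kidney 2, normal liver 1 and secondary kidney tumor 1 together, chosen after the data were seen, gave 5, 6, 5 and 6 called members, as in the full set, and 7 of 9 without overlap in the liver. Levels near 7 have no detection p and limit folds of Car4, Car5a, Car8, Car12, Car13 and Car15.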

Other observations

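Car13, Car1, Car3 and Car2 follow one another as protein-coding genes on the same chromosome in the RefSeq annotation of GRCm38.p6. Their levels took different courses. In liver tumors the arrays of Car13 lay wholly above normal liver, those of Car1 and Car3 wholly below, and those of Car2 overlapped. In secondary kidney tumors Car13 rose by 0.77 ± 0.31 (SE, n = 3, limma) while Car2 fell by 2.89 ± 0.28. Of the genes between them, neither Car1 (-0.17 ± 0.12, adjusted p 0.228) nor Car3 (-0.79 ± 0.99, adjusted p 0.484) passed. Whether the neighbours differ in their course was not tested.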
